A study of Mus musculus with 6 samples.

Results

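H2-Eb1, H2-Ea-ps, Cd86 and Cd4 are the genes of class II antigen presentation, co-stimulation and CD4 recognition that were listed for this account, and all 4 were found by symbol among the 254 gene rows of the deposited table (248 endogenous and 6 housekeeping genes). The source was the whole thickness of the back skin of hairless, immunocompetent SKH-1 mice, and RNA was counted with barcoded probes of the nCounter Mouse Inflammation V2 panel. Every mouse was irradiated acutely with solar simulated light (SSL), made up of UVA (90 kJ/m2) and UVB (6 kJ/m2), and the tissue was taken 24 h afterwards. The backs of the UV group (n = 3) were painted with acetone, the vehicle. The UV plus BMS-202 group (also n = 3) had BMS-202 at 8 mM instead, a compound that blocks PD-L1, the ligand of the T cell checkpoint receptor PD-1. Each of the 3 applications was 200 µl, the first 24 h and the second 1 h ahead of the light, and the last as soon as it ended. The titles call the vehicle samples wild type, and the labels give no age or sex and do not tie a sample to a mouse. The question is whether blocking PD-L1 on the skin changes these transcripts after irradiation. Unirradiated skin was not analysed here.

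Class II molecules are heterodimers of an alpha and a beta chain that carry peptides from endocytosed proteins to the surface of dendritic cells, Langerhans cells, macrophages and B cells. The CD4 co-receptor of helper T cells binds class II while the T cell receptor reads the peptide, and CD86 on the presenting cell gives the second signal through CD28. PD-L1 is carried by many of the same presenting cells. H2-Eb1 encodes the beta chain of the mouse I-E molecule. H2-Ea encodes its alpha chain and is listed on the panel under its older name H2-Ea-ps. In C57BL/6 mice the gene has lost its promoter and first exon, so the RefSeq mouse table lists it as a transcribed pseudogene, whereas other haplotypes carry an intact gene. Neither the haplotype of these SKH-1 mice nor the probe sequences were given, so how well the H2-Eb1 and H2-Ea-ps probes match the alleles of these mice was not tested. In the RefSeq table (GRCm38.p6) H2-Eb1 and H2-Ea lie on chromosome 17 with H2-Eb2 as the gene between them, Cd86 lies on chromosome 16 and Cd4 on chromosome 6.

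Relative to Gapdh H2-Eb1 showed the largest difference of the 4 genes, though it had the smallest against Hprt, Pgk1, Cltc and Gusb, and its promoter holds the elements through which class II genes are switched on. The RFX complex binds the X box and NF-Y binds the Y box, and the co-activator CIITA, itself induced by interferon gamma, assembles on both. The 120 bases before the RefSeq start site of H2-Eb1 (chr17:34305747-34305866, GRCm38.p6, plus strand) are shown 5′ to 3′, with matches to an X box core and a Y box core in capitals.
H2-Eb1: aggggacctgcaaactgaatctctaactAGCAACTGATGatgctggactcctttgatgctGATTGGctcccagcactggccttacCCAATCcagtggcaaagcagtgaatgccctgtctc
The X box core searched was AGCAAC and GATG with any 1 base between them, and the Y box core was GATTGG, on both strands, and the matches do not overlap. The X box match runs from 92 to 82 bases before the start, the forward Y box match from 60 to 55 and a reverse Y box match from 35 to 30. Of 32851 RefSeq promoters of 300 bases, 23 (0.0700%) hold this X box core and 16.1% hold the Y box core. H2-Eb2 holds both, at 133 to 123 and 101 to 96 bases before its start. The promoters of H2-Aa, H2-DMa, H2-DMb1, H2-DMb2, H2-Oa and H2-Ob hold the Y box core but not these X box letters. A match is a description of the letters and not evidence of binding. H2-Ea, Cd86 and Cd4 had no entry in the promoter table.

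The deposited gene values are probe counts scaled so that Gapdh reads 6417 in every sample, and 20 is the lowest value written, a floor. Dividing by the value of 1 count gave whole counts, with totals over genes of 142900 to 160891 per UV sample and 41537 to 45040 per UV plus BMS-202 sample. The positive spike-in controls totalled 78281 to 90723 and 67957 to 73592 counts. The 8 negative controls summed to 88 to 111 counts per UV sample and 139 to 148 per treated sample, 1.41 times as many on average. Relative to Gapdh the other 5 housekeeping genes read 2.33-fold (Tubb5) to 10.6-fold (Gusb) lower with BMS-202. Within each group the 3 samples differed by little more than sampling noise (chi-square per degree of freedom 1.11 with UV and 1.10 with BMS-202), and no pair of a group stood apart from the others (1.06 to 1.14 between UV samples, 1.04 to 1.15 between treated samples). They were kept as 3 samples, but the spread behind each SD and p-value may be technical.

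Relative to Gapdh, H2-Eb1 fell 14.2-fold with BMS-202, whereas Cd4 rose 2.0-fold and Cd86 1.62-fold. H2-Ea-ps went from the floor to at least 2.77 times that level. H2-Ea-ps read 20 in each UV sample, where no lower value can be read, so its direction was fixed and is not a result. In each of the 4 genes the 3 UV samples and the 3 UV plus BMS-202 samples did not overlap, but this was so for 95% of the 240 endogenous genes tested. Of these 240 genes 38.3% were called higher and 55% lower (limma, Benjamini-Hochberg adjusted p under 0.05). A call in itself therefore says little about a gene on this panel. Of the 240 genes 38 were at 20 throughout the UV group and could not be called lower. They raise the share called higher and reduce the share called lower, also where these shares are set beside lists below. Skin is a mixture of cells, and fewer cells of a type cannot be told apart from less RNA per cell.

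**Figure D1:**
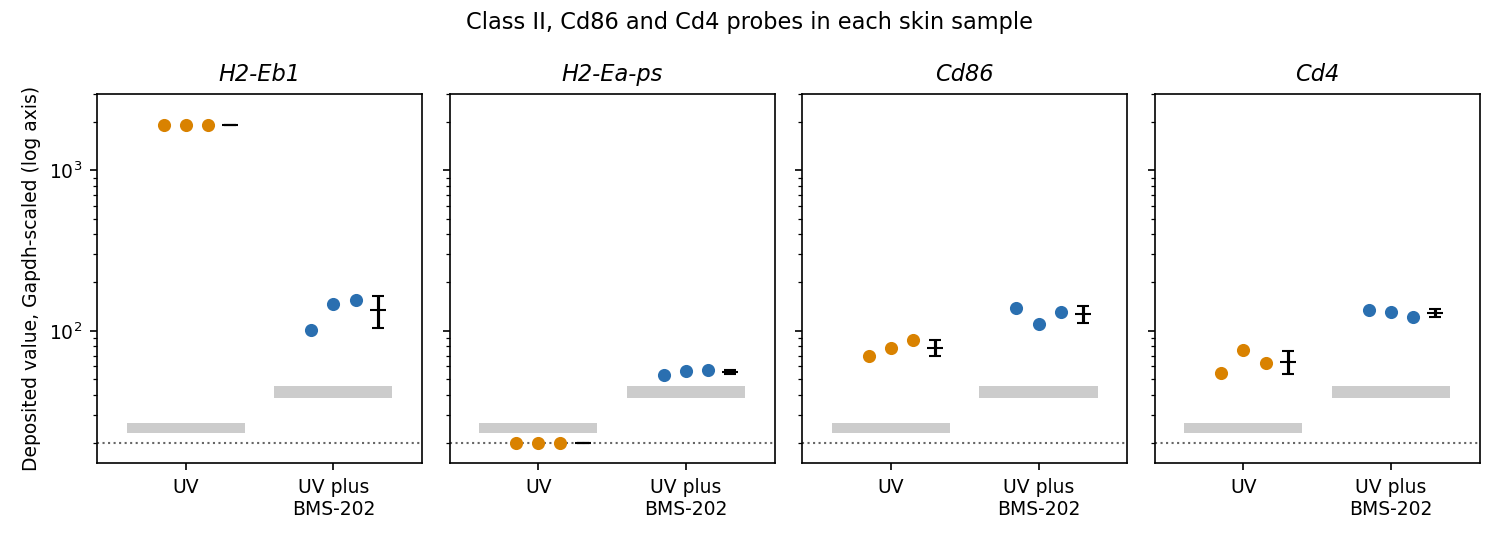
Deposited values of H2-Eb1, H2-Ea-ps, Cd86 and Cd4 (Gapdh-scaled, log axis) in the 3 UV samples (orange) and the 3 UV plus BMS-202 samples (blue), with mean ± SD in black. The dotted line is the floor of 20 and the grey bands span the negative control limits (mean + 2 SD) of the group's samples: H2-Eb1 drops from about 1904 to 134, while the other 3 genes lie higher with BMS-202, all above the grey band.

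H2-Eb1, the class II beta chain gene, read 1909.9, 1900.0 and 1900.8 in the UV samples. With BMS-202 it read 100.6, 146.8 and 155.1. The groups lay far apart, and replicate 1 was the lowest of the BMS-202 samples. On the log2 scale the difference was -3.84 ± 0.13 (SE, n = 3 per group, limma adjusted p = 6.77e-10). The UV values rest on 2061 to 2265 counts and the BMS-202 values on 83 to 142 counts, above the negative control limits (mean + 2 SD) of 34.5 to 37.9 counts in those samples. The SD of the UV values was 5.48 where counting alone would give 40.9. That of the BMS-202 values was 29.4 against 12.6 from counting, so the spread between the BMS-202 samples exceeded counting noise.

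H2-Ea-ps, the class II alpha chain gene, was listed at 20 in all 3 UV samples. With BMS-202 it read 53.3, 56.1 and 56.8, and every BMS-202 sample lay above the floor. With the UV value taken as 20 the log2 difference was 1.42, which understates the difference in reading if the true UV reading is lower. This and the other bounds for H2-Ea-ps are on probe readings, which include background. The negative controls gave 1.41 times as many counts with BMS-202, so these are not bounds on the RNA. No p is given for it, because the gene entered the tested set only through the BMS-202 samples and could not be called lower. The probe gave 44, 47 and 52 counts with BMS-202, where the negative control limits were 34.5, 37.9 and 35.1 counts and the highest negative controls gave 27, 32 and 35. These are low counts that clear the background by a small margin. Of 45 endogenous genes listed at 20 throughout the UV group, 38 lay above it in all BMS-202 samples, with means of 45.3 to 648.6 and a median of 83.5. H2-Ea-ps, at 55.4 ± 1.84 (SD), was among the lower of these, with 6 genes below it and 31 above.

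Cd86, the co-stimulatory ligand gene, read 69.5, 78.0 and 87.3 with UV. It read 139.3, 111.0 and 131.1 with BMS-202, and the lowest treated sample lay above the highest UV sample. The log2 difference was 0.69 ± 0.12 (SE, limma adjusted p = 0.000265). The probe counts behind these values were 75, 93 and 100 with UV and 115, 93 and 120 with BMS-202, so before scaling the groups shared a value.

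Cd4, the helper T cell co-receptor gene, read 54.7, 75.5 and 62.8 with UV. It read 134.5, 131.3 and 121.2 with BMS-202, and the groups were well apart. The log2 difference was 1.00 ± 0.12 (SE, limma adjusted p = 1.91e-05). The counts rose too, from 59, 90 and 72 to 111, 110 and 111. Some mouse dendritic cells also express Cd4, so the transcript does not count T cells alone.

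Each gene was set beside the other endogenous genes whose UV mean lay within 1.5 times of its own. H2-Eb1 had 9 such neighbours, all called lower, with a median log2 difference of -1.98 and a range of -3.16 (the complement gene C3) to -0.30 (the chromatin protein gene Hmgn1). H2-Eb1 lay below all 9, and also below all 24 genes within 2 times of its UV mean (median -2.50), of which the cytokine gene Tgfb1 came closest at -3.72. Cd86 had 26 neighbours, of which 12 were called higher, 9 lower and 5 neither (median 0.24), and 18 of them lay below it. Cd4 had 28, of which 18 were called higher, 6 lower and 4 neither (median 0.66), and 22 lay below it. H2-Ea-ps had 67, of which 57 were called higher, none lower and 2 neither, while 8 were too low to be tested. Most of the 67 were at 20 throughout the UV group and could not be called lower, so this split was largely fixed. The median of the 67 was 1.77 and 45 lay above H2-Ea-ps. Of the 4 genes, H2-Eb1 alone lay outside the range of its neighbours.

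**Figure D2:**
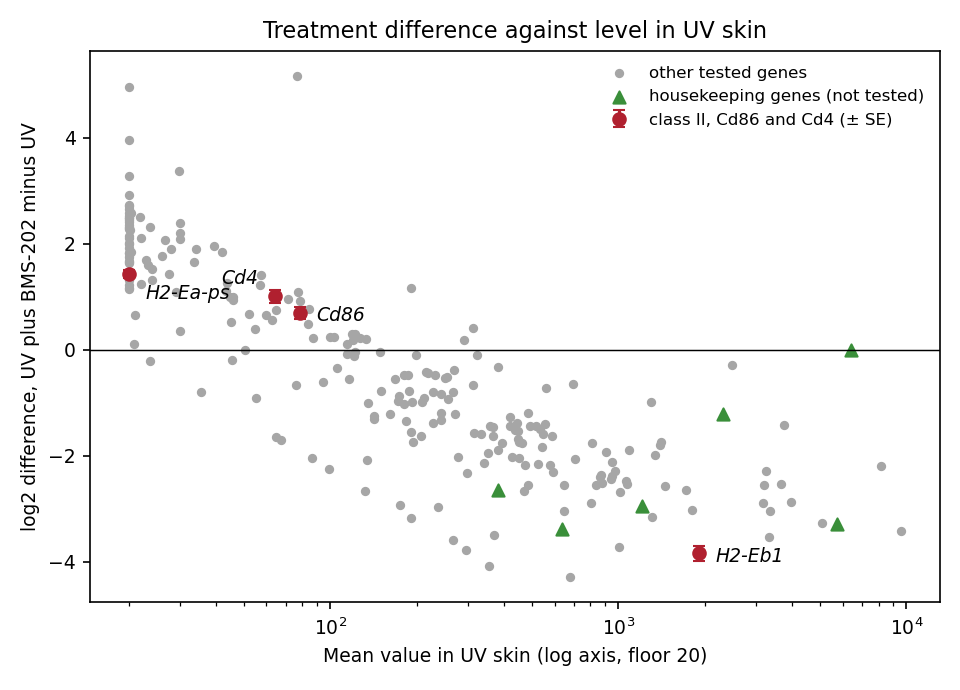
Log2 difference (UV plus BMS-202 minus UV, relative to Gapdh) against the mean value in UV skin (log axis) for the tested genes in grey, the housekeeping genes as green triangles and H2-Eb1, H2-Ea-ps, Cd86 and Cd4 in red with SE. H2-Eb1 lies at the lower edge at -3.84 while Cd86 (0.69), Cd4 (1.00) and H2-Ea-ps (1.42) lie among genes of like level.

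The size of each difference turned on the reference gene. The ratio of a gene to a housekeeping gene of the same sample does not depend on how the sample was scaled. Against Gapdh the log2 ratio of H2-Eb1 fell by 3.85, and against the tubulin gene Tubb5 by 2.63. Against the other 4 it moved far less: by -1.19 ± 0.23 for Hprt, -0.88 ± 0.31 for Pgk1, -0.56 ± 0.21 for Cltc and -0.44 ± 0.29 for Gusb (SE, n = 3 per group). The groups did not overlap for any reference except Gusb (exact permutation p = 0.2, two-sided). For the other 5 the p was 0.1, the smallest that 3 against 3 samples allow. Relative to Gapdh, Gusb fell 10.6-fold and Cltc 9.77-fold, beside 14.2-fold for H2-Eb1.

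Cd86 and Cd4 rose against every housekeeping gene. Their rise was larger against the other 5 than against Gapdh, as it would be for any gene, since those 5 fell relative to Gapdh. With those 5 as the scale 203 of 231 tested genes were called higher. As deposited, the groups did not overlap for 95% of all 240 tested genes. The log2 ratio of Cd86 rose by 0.70 ± 0.14 against Gapdh and by 1.92 ± 0.18 (Tubb5) to 4.11 ± 0.15 (Gusb) against the rest. That of Cd4 rose by 1.01 ± 0.14 against Gapdh and by 2.24 ± 0.15 to 4.43 ± 0.15 against the same genes. In every one of these ratios the groups did not overlap (exact permutation p = 0.1 each, the smallest possible). For H2-Ea-ps, taken as 20 in UV skin, the difference was at least 1.47 against Gapdh and at least 2.69 to 4.88 against the others.

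**Figure D3:**
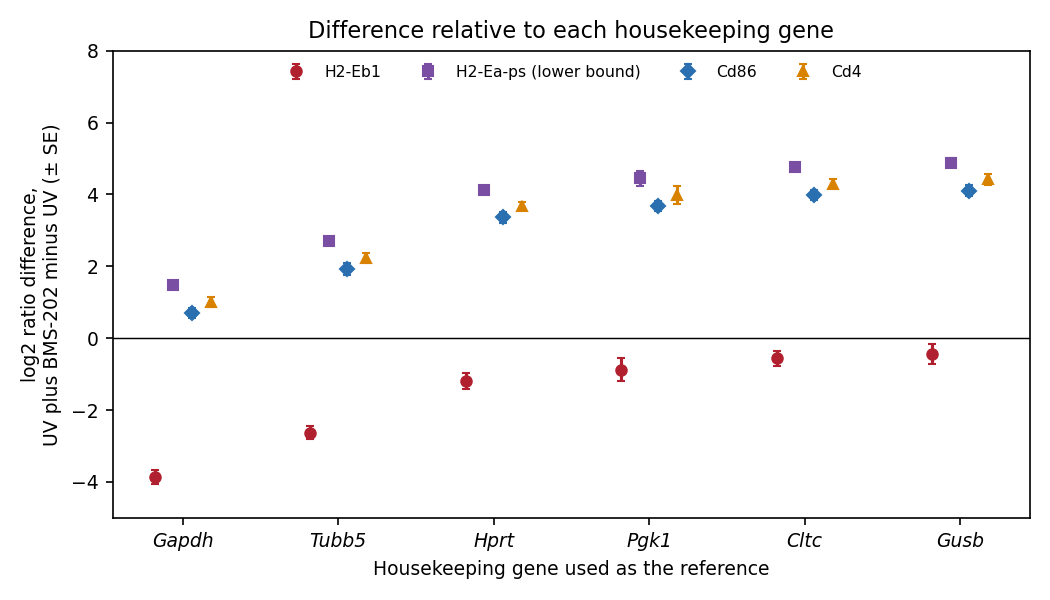
Difference between the groups in the log2 ratio of each gene to each of the 6 housekeeping genes (mean ± SE, n = 3 per group). H2-Eb1 (red circles) stays below 0 for every reference but shrinks from -3.85 against Gapdh to -0.44 against Gusb, while Cd86, Cd4 and H2-Ea-ps (a lower bound) lie above 0 throughout.

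Set against the positive spike-in controls, which do not depend on any transcript of the skin, H2-Eb1 fell 18.5-fold, from 976 ± 51.3 to 52.8 ± 12.3 counts per 1000 spike-in counts (SD, n = 3, with the geometric mean of the 6 controls as the spike-in count). Spike-in scaling does not adjust for the amount of skin RNA counted, and the totals over genes were lower with BMS-202. The median log2 difference over the 239 genes tested on this scale was -0.94. Cd4 rose 1.54-fold, from 32.8 ± 3.93 to 50.7 ± 2.17, without overlap. Cd86 went from 40.2 ± 5.44 to 50.2 ± 7.67, and the lowest BMS-202 sample (41.3) lay below the highest UV sample (46.4). H2-Ea-ps was at least 2.13-fold higher on this scale. Under spike-in scaling the limma adjusted p was 0.0479 for Cd86, close to the threshold, and 0.000204 for Cd4.

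With 6 ways of scaling (deposited, 6 housekeeping genes, the 5 without Gapdh, panel median, quantile and spike-in), H2-Eb1 was called lower and Cd86 and Cd4 higher in every one. Of the 240 genes 7.08% were called lower and 27.5% higher in all 6. The log2 difference ranged from -4.22 (spike-in) to -1.14 (5 housekeeping genes) for H2-Eb1, from 0.31 (spike-in) to 2.60 (6 housekeeping genes) for Cd86, from 0.63 to 2.63 under the same scalings for Cd4, and from 0.34 (quantile) to 1.42 (deposited) for H2-Ea-ps. The split of calls over the panel moved from 92 higher and 132 lower to 183 and 33 with the 6 housekeeping genes, 203 and 17 with the 5, 107 and 117 with the panel median, 98 and 95 with quantiles and 82 and 142 with the spike-ins. The median of all tested genes moved with it, from -0.56 to 1.41, 1.63, -0.14, 0.11 and -0.94 in the same order. Under both housekeeping scalings the floor rises to 97.1 or more in deposited UV units, above every UV value of Cd4 and Cd86. In those 2 scalings their differences are held down by the floor and could not come out lower, so for both genes only the other 4 scalings bear on the direction.

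Ratios between the 4 genes are free of scaling as well. H2-Eb1 exceeded Cd86 by 4.61 log2 units of probe signal in UV skin and by 0.059 with BMS-202, a difference of -4.55 ± 0.29 (SE). Against Cd4 the difference was -4.87 ± 0.27, and against H2-Ea-ps, held at 20 in UV skin, it was -5.32 ± 0.17, a bound on the true difference. For Cd86 against Cd4 the difference was -0.32 ± 0.17 with overlapping groups, and -0.44 without UV replicate 2, where they no longer overlapped. The groups did not overlap for H2-Eb1 against Cd86 or against Cd4 (exact permutation p = 0.1 each, the smallest possible and not adjusted for the number of pairs). For Cd86 against Cd4 the exact permutation p was 0.3. No p is given for the pairs with H2-Ea-ps, because its UV values are the floor. The adjustment that was run took in those pairs, so no adjusted p is given for any pair. Probe signals of different genes are not levels that can be ranked, so only the change of each ratio is of use here.

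The tested genes whose profile over the 6 samples lay closest were found by the root mean square (RMS) difference of log2 values after centring on UV skin, as a description with n = 6. For H2-Eb1 these were Fxyd2, a subunit of the sodium pump (0.19), and the repressor gene Bcl6 (0.25), against a median of 2.31 over the tested genes. Both read near the floor with BMS-202 (20.6 and 21.3), so their falls are lower bounds. For Cd4 they were the interferon-induced GTPase gene Iigp1 (0.14) and the interferon regulatory factor gene Irf7 (0.15). Iigp1 went from 77.3 ± 9.40 to 164.7 ± 10.4 and Irf7 from 78.4 ± 3.38 to 148.7 ± 13.8 (SD). For Cd86 they were the RNA sensor gene Tlr3 (0.18), whose value with BMS-202 (33.9) lies under the negative control limit, and the complement gene C6 (0.19). For H2-Ea-ps they were Mef2b, a transcription factor gene (0.037), and the death ligand gene Fasl (0.064), both also at 20 in all UV samples.

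Other genes of the pathway were few on the panel. Of 18 further genes of antigen presentation and co-stimulation, among them H2-Aa, Cd74, Ciita and Cd80, only Cd40 was in the table. Cd40 encodes the receptor on presenting cells through which helper T cells license them, and it rose from 45.0 ± 5.94 to 89.8 ± 6.97 (log2 0.99 ± 0.12 SE, limma adjusted p = 1.48e-05), close to the rise of Cd4. Over the 6 scalings the log2 difference of Cd40 was 0.26 to 2.11, with its UV values under the raised floor in both housekeeping scalings. With quantiles Cd40 was not called (0.26), whereas Cd4 was called higher (1.16). CD4 T cell partners had 3 of 16 genes on the panel, Cd40lg, Il2 and Ccr4, all at 20 in every UV sample and called higher. Il2, the T cell growth factor gene, read 73.7 ± 11.9 with BMS-202, and Ccr4, a chemokine receptor of skin-homing T cells, 52.4 ± 4.61, at least 3.68 and 2.62 times the floor. A gene at the floor in UV skin can only rise, so these counts show no direction of their own.

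Regulators of class II and Cd86 expression had 11 of 17 genes on the panel, all tested. Of these, 5 were called higher and 6 lower, beside 38.3% and 55% of all 240 genes. Of the 11, 4 were at 20 in every UV sample and could only rise. The split moved to 9 higher and 2 lower with the 6 housekeeping genes, and to 9 and 1 with the 5. As deposited, the median log2 difference of the 11 genes was -1.21, beside -0.56 over all 240 genes. Ifng, the main inducer of class II through CIITA, was at 20 in all UV samples and read 117.0 ± 9.97 (SD) with BMS-202. Irf1, a transcription factor that carries the interferon gamma signal to CIITA, fell 4.09-fold relative to Gapdh, but read higher under both housekeeping scalings (log2 0.23 and 0.68). Tgfb1, a cytokine that restrains class II expression, fell 13.3-fold, from 1002 ± 68.3 to 75.5 ± 9.68, and was lower under all 6 scalings (log2 -4.10 to -1.02). The NF-kB subunit gene Nfkb1 fell 5.89-fold and turned to a log2 difference of 0.15 when the 5 housekeeping genes set the scale. Il10 (55.9), Csf2 (56.1) and Il4 (45.3, at the highest negative control limit of 45.3) also rose from the floor, and Tnf from 64.9 ± 8.13 to 109.1 ± 5.21.

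**Figure D4:**
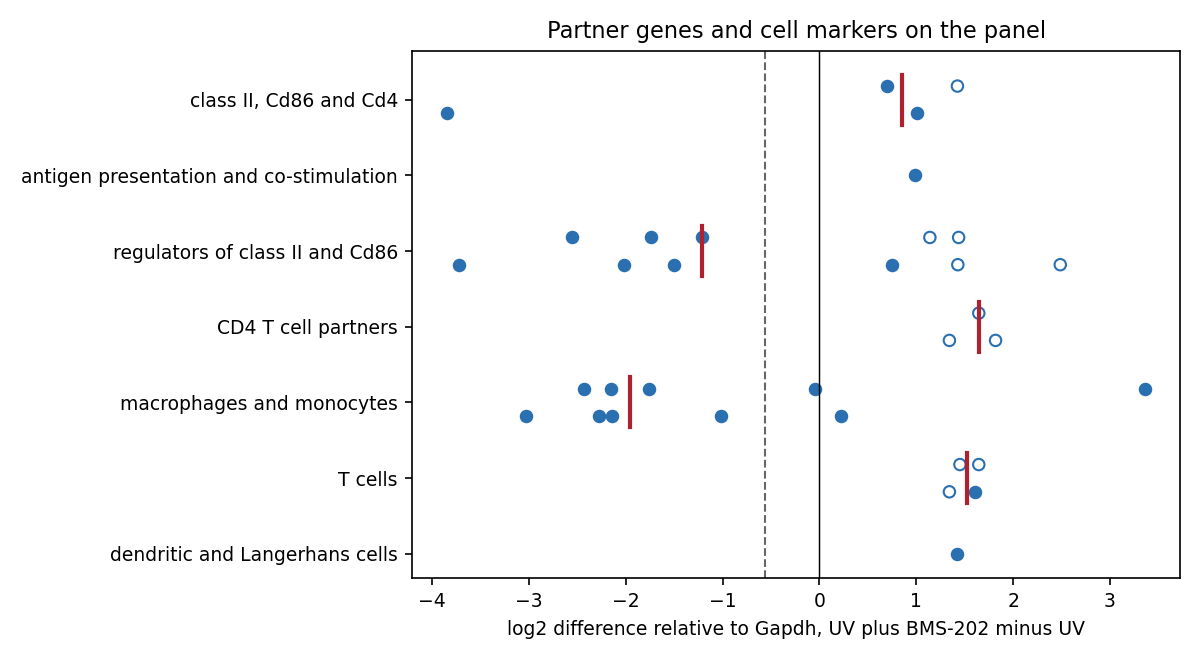
Log2 differences relative to Gapdh of H2-Eb1, H2-Ea-ps, Cd86 and Cd4 and of each listed gene on the panel, by list (open circles: genes at 20 throughout the UV group, red bars: medians, dashed line: median of all tested genes at -0.56). Genes of the CD4 T cell partner and T cell lists lie to the right of 0, most of them rising from the floor, and 7 of 10 macrophage and monocyte markers were called lower.

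As deposited, markers of cells that carry these transcripts did not all move in 1 direction. Of 14 macrophage and monocyte markers 10 were on the panel, of which 7 were lower, 1 (Chi3l3) higher and 2 (Ccr2 and Arg1) not past the threshold, with a median log2 difference of -1.95, beside 55% of all 240 genes called lower. The direction rested on the scaling: 9 of the 10 read above 0 with the 5 housekeeping genes (8 called higher) and 7 with the 6 (5 called higher), against 2 as deposited. Their summed value was 7621 to 7793 in the UV samples and 1931 to 2099 with BMS-202. Itgb2, the shared beta chain of leukocyte integrins, fell 8.18-fold and Tyrobp, an adaptor of myeloid receptors, 4.85-fold relative to Gapdh, less than H2-Eb1. Tyrobp read 0.43 with the 5 housekeeping genes and 0.13 with quantiles (log2), while Itgb2 was lower under all 6 scalings (log2 -3.41 to -0.32). Of 7 dendritic and Langerhans cell markers only Ccr7, a migration receptor, was on the panel, and it rose from 27.6 ± 6.59 to 75.3 ± 14.97. In UV replicates 1 and 3 Ccr7 read 24.1 and 23.6, near the negative control limits of the UV samples (23.0 to 26.6). With quantiles it was not called (log2 0.22). Of 10 T cell markers 4 were on the panel and were called higher, beside 38.3% of all tested genes. All 3 UV samples read 20 for 3 of them, so the count carries no direction. The lymphotoxin gene Ltb rose from 23.3 ± 1.94, a level near the negative control limits of the UV samples (23.0 to 26.6). With quantiles its log2 difference was 0.22. On that scale 3 of the 4 markers stayed called higher, among them Cd40lg and Ccr4, which could only rise. Cd40lg, Fasl and Ccr4 rose from the floor. The 4 markers summed to 81.3 to 85.2 in UV samples and 238.7 to 254.5 in treated samples. Most of the UV sum is the floor value of 3 genes, so its rise shows no direction either. The T cell receptor complex genes Cd3d, Cd3e and Cd3g were not in the table, and none of 3 B cell or 4 keratinocyte markers was, so the skin label could not be checked against keratins. The muscle gene Myl2 was at 20 in all UV samples and read 102.5 ± 7.82 with BMS-202. The adipocyte gene Cfd fell 2.72-fold relative to Gapdh. Its log2 difference turned to 0.81 with the 6 housekeeping genes, 1.26 with the 5 and 0.13 with quantiles. The part of cell composition in the differences of H2-Eb1, Cd86 and Cd4 was not tested.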

How the data were processed

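The table holds nCounter values of 6 skin samples, assayed on column-extracted total RNA per the labels. The deposited values are a signal scaled per sample: the values show that the authors' scaling fixed Gapdh, wrote low values as 20 and left control rows as counts. Its software is not given in the sources used here, nor is the reason for using Gapdh alone. Gene values above 20 were whole multiples of 1 step per sample (tolerance 0.006), which gave the counts, used for depth and not for tests. limma 3.58.1 in R 4.3.3 (eBayes with trend) was run on log2(value + 1), which understates changes of low genes, over 240 endogenous genes above 20 in at least 3 samples, with Benjamini-Hochberg adjustment at 0.05, and was tested on simulated data. Differences subtract UV skin from treated skin. Folds are ratios of group means, taken against 20 as a lower bound where UV skin was at the floor. Named genes were the 4 listed genes, the housekeeping genes, the 2 nearest profiles to each listed gene and the 2 genes with the smallest p of each list. Others, such as C3, Hmgn1, Ifng, Irf1, Il10, Il4, Csf2, Tnf, Cd40lg, Chi3l3, Ccr2 and Arg1, were named after their values were seen. The result of 1 listed gene is not reported here. The genes and lists were chosen with earlier results of these data known. Alternatives are given in the closing section.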

Additional observations from a re-analysis of the deposited data

How the results depend on the processing

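H2-Eb1, Cd86 and Cd4 kept their direction and their side of the threshold under every alternative run, although Cd86 and Cd4 could not come out lower under both housekeeping scalings, and H2-Ea-ps, at the floor in UV skin, could not do so under any: 5 other scalings, a filter at 50 or none, a pseudocount of 10, limma without trend, with robust estimation or array weights, the replicate block, leaving out each sample, and subtraction of the negative control mean, which was added after the data were seen. With that subtraction H2-Ea-ps read 0.76 and H2-Eb1 -4.08 on the log2 scale. Leaving out each sample gave -3.96 to -3.65 for H2-Eb1, 0.61 to 0.79 for Cd86 and 0.89 to 1.12 for Cd4. Without a BMS-202 sample H2-Ea-ps had no value, since only 2 samples then exceed the floor, and the same rule lowers the count of genes called higher from 92 to 51 to 52 (51 to 94 over all 6 omissions). That count was 183 with the 6 housekeeping genes and 203 with the 5, and the count of lower genes, 132, became 33 and 17. With Cltc, Gusb, Hprt, Pgk1 and Tubb5 in turn as the only reference the log2 differences were -0.56, -0.44, -1.19, -0.88 and -2.63 for H2-Eb1, 4.76, 4.88, 4.13, 4.44 and 2.69 for H2-Ea-ps, 3.99, 4.11, 3.36, 3.68 and 1.92 for Cd86, and 4.30, 4.43, 3.68, 3.99 and 2.24 for Cd4. The replicate numbers did not pair the samples: deviations of same-numbered samples correlated at 0.020, -0.033 and 0.012, and not every sample correlated best with its own number. With the replicate block 90 genes were called higher and 132 lower, and Cd86 kept its call (adjusted p = 0.00137). The ratio of H2-Ea-ps to Cd4, with H2-Ea-ps at the floor in UV skin, changed by 0.45 without and 0.21 with a pseudocount of 10. With that pseudocount its groups overlapped. The median of genes at the UV level of H2-Eb1 was -2.84 in a narrower window that holds only 2 genes. Counts of 44 to 52 for H2-Ea-ps, near the negative control limits, limit what can be said of it.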
